A study of Drosophila melanogaster with 17 samples.

Results

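The 6 genes described here cover the main steps that a fatty acid passes through in a fly cell. They are FASN1 and FASN3 (synthesis), Acsl (activation), Lsd-1 and bmm (storage and release) and whd (entry into the mitochondrion). They were taken by their gene symbol in the platform annotation, with earlier results of these data known, and are 6 of the 8938 genes that carried 1 symbol. Each was read by 1 probe set, and all 6 probe sets were in the deposited filtered table.

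Fatty acid synthase builds long-chain fatty acids from malonyl-CoA. An acyl-CoA synthetase then couples a fatty acid to coenzyme A, which commits it either to membrane and storage lipids or to oxidation. Stored triglyceride sits in lipid droplets, whose coat of perilipins controls the access of lipases, and carnitine palmitoyltransferase 1 passes long-chain acyl groups into mitochondria for beta-oxidation. In insect brains lipid droplets are found mainly in glia, and the surface glia form the blood-brain barrier. The fat body, which lies around the brain in the head capsule, is the main lipid store of the fly.

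RNA of whole adult Drosophila melanogaster brains was measured on 17 arrays in 5 groups. Flies of C17 (3 arrays) were null for moody, whose product is a receptor coupled to G proteins in the barrier glia. Those of PMdr65 (3 arrays) were null for Mdr65, which in these glia codes for a transporter of the ABC family that exports drugs. WT_new (3 arrays) and WT_old (5 arrays) were Canton S wild type, and UAS_control (3 arrays) carried a UAS-Mdr65-RNAi construct, for which the labels name no driver. Each array held RNA pooled from 4 brains of female and male flies, raised at 16 °C or room temperature, with no age beyond adult given in the labels. Each genotype was 1 line, both mutations were present in the whole animal, and the mutants differed from Canton S in genetic background, for which the series includes UAS_control. WT_new was prepared on another day than the mutants, for which the series includes WT_old. The labels number the arrays of a group as replicates but do not say whether they came from separate cultures, so a p-value here reflects how these pools scatter, which may be technical.

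Values are log2 signals, so a difference of 1 is a 2-fold change, and levels of different genes are not compared because probe sets differ in brightness. The targeted genes matched the labels: moody was 2.17 ± 0.11 (SD, n = 3) in C17 and between 9.77 and 11.39 in the means of the other groups. Mdr65 was 4.69 ± 0.04 (SD, n = 3) in PMdr65 and between 9.80 and 11.09 elsewhere. Array medians lay between 7.856 and 7.991. The mean of 7 neuronal markers lay between 12.10 and 12.33, and 0 of them passed against all 3 control groups in either mutant. Between WT_old and WT_new, elav, brp and cac were higher in WT_old and futsch lower. The glial marker repo lay between 9.93 and 10.58 and elav between 11.50 and 11.99. Markers of tissues next to the brain were not even. The mean of 6 eye markers was 10.51 on WT_new array 3, 10.23 on UAS_control array 2 and 9.88 on UAS_control array 3. On UAS_control array 1 it was 8.72, on the other WT_new arrays 6.14 and 6.97, and on WT_old and the mutants between 5.38 and 6.01. Calls that were lost without those 3 brightest arrays are given with the value without them, or for FASN3 with the signals that remain.

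Acsl and whd moved in opposite directions in brains without Mdr65. Acsl, the long-chain acyl-CoA synthetase gene, was 1.35- to 1.56-fold higher in PMdr65 than in the 3 control groups. The gene for carnitine palmitoyltransferase 1, whd (withered), was 1.42- to 1.98-fold lower. In C17, Acsl was higher than in both wild types by 1.31- to 1.32-fold, and whd was between the levels of WT_old and UAS_control. Of the 6 genes these 2 passed in 1 direction against all 3 control groups in PMdr65, 1 higher and 1 lower, and 0 did in C17. Of all genes, 9.05% did so in PMdr65 (5.87% higher, 3.18% lower) and 6.65% in C17 (4.37% higher, 2.27% lower). A gene is said here to rise, fall or differ only where limma's p-value, adjusted over all 13290 probe sets of the filtered table by the Benjamini-Hochberg method, was below 0.05.

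**Figure D1:**
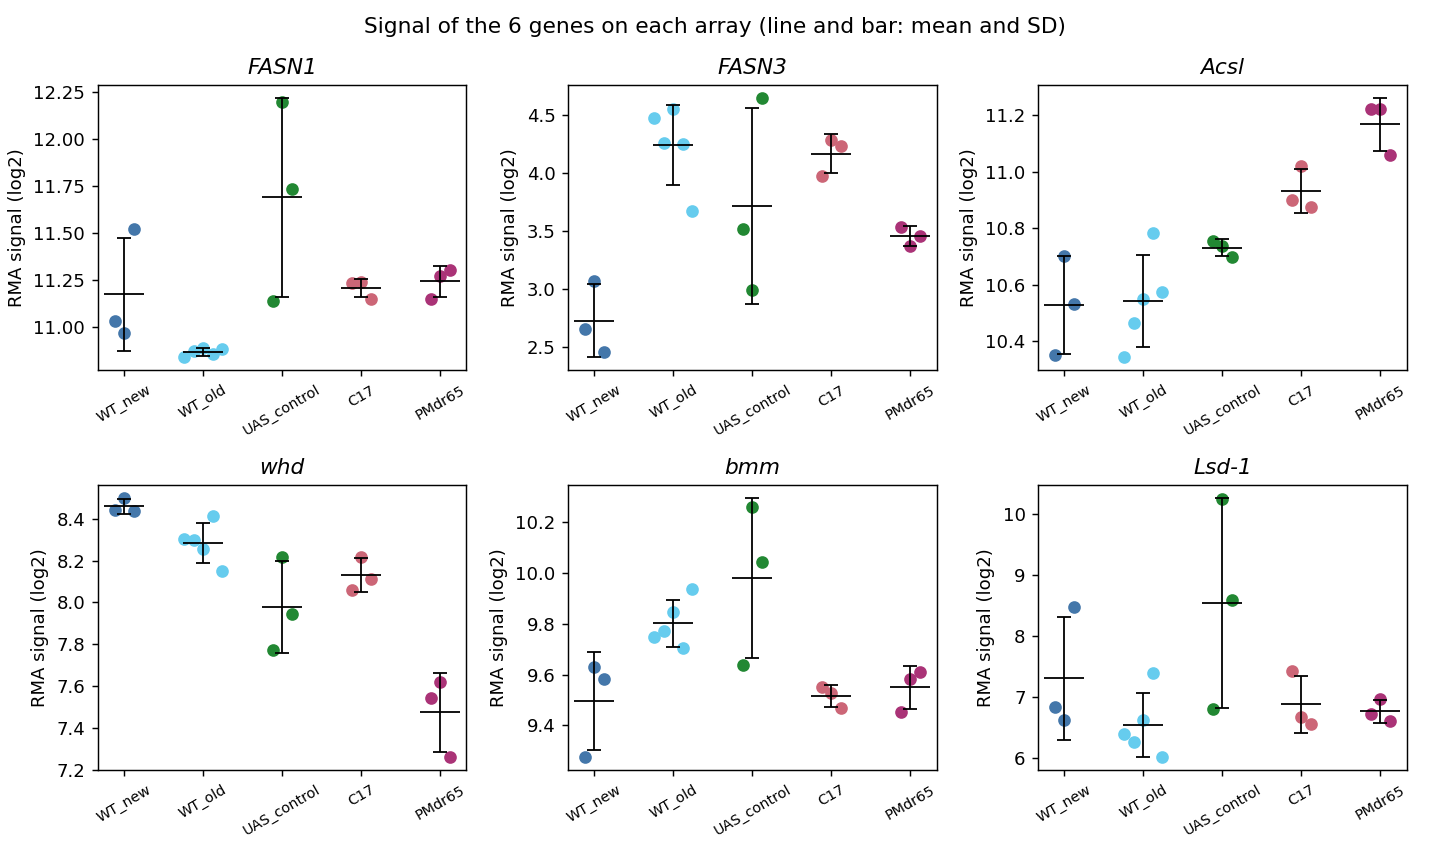
Each panel shows the log2 signal of 1 gene on each of the 17 arrays by group, with the group mean (line) and SD (bar); the vertical scales differ between panels. The 3 PMdr65 arrays lie above all control arrays for Acsl and below them for whd, and UAS_control arrays 2 and 3 carry the highest FASN1, bmm and Lsd-1 signals.

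The Acsl signals of PMdr65 were 11.22, 11.22 and 11.06, and those of C17 were 10.90, 11.02 and 10.87. WT_new had 10.35, 10.70 and 10.53, WT_old 10.34, 10.46, 10.55, 10.78 and 10.57, and UAS_control 10.76, 10.74 and 10.70. Every array of either mutant was therefore above every control array. Separation in either direction, all above or all below the control arrays, was shown by 12.3% of all genes in PMdr65 and 10.9% in C17. The mean rose from WT_new (10.53 ± 0.17) and WT_old (10.54 ± 0.16, n = 5) through UAS_control (10.73 ± 0.03) and C17 (10.93 ± 0.08) to PMdr65 (11.17 ± 0.09; SD, n = 3 unless given). No neighbours in this order differed past the threshold.

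In PMdr65, Acsl was higher by 0.64 than in WT_new (limma, SE 0.10, adjusted p = 0.000188), by 0.63 than in WT_old (0.000138) and by 0.44 than in UAS_control (0.00398). The same comparisons in C17 gave 0.40 (limma adjusted p = 0.00600), 0.39 (0.00758) and 0.20 (0.128, 95% interval -0.02 to 0.42). Against the UAS line, which the series includes for genetic background, the rise in C17 thus did not pass. Between the mutants Acsl was 0.24 lower in C17, with an interval from -0.46 to -0.02 that was not past the threshold after adjustment (limma adjusted p = 0.240), so the data do not settle whether the mutants differ.

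Some glial markers (11 of 12 measured, moody and Mdr65 among them) differed as well. Against each of the 3 control groups, PMdr65 was higher in moody, wrapper and ltl and lower in Mdr65, and C17 was higher in zyd and ltl and lower in moody. The fall of Mdr65 in PMdr65 and of moody in C17 is set by the genotype. The other glial markers measured, repo among them, did not pass in this way in either mutant. Of all genes, 9.05% did so in PMdr65 and 6.65% in C17. The median difference of the glial list was 0.20, 0.48 and 0.20 in PMdr65 and 0.25, 0.40 and 0.26 in C17, against WT_new, WT_old and UAS_control. The part of these markers in the Acsl and whd results was not tested.

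The whd signals of PMdr65 were 7.55, 7.62 and 7.26, and the lowest signal on any other array was 7.77, in UAS_control. C17 had 8.06, 8.22 and 8.11, WT_new 8.44, 8.50 and 8.44, WT_old 8.31, 8.30, 8.26, 8.41 and 8.15, and UAS_control 7.77, 8.22 and 7.94. PMdr65 thus stood below all others, and the 3 WT_new arrays were above the 14 other arrays. The order of the means was PMdr65 (7.47 ± 0.19), UAS_control (7.98 ± 0.22), C17 (8.13 ± 0.08), WT_old (8.28 ± 0.09, n = 5) and WT_new (8.46 ± 0.04; SD, n = 3 unless given). Of the neighbours in this order, PMdr65 and UAS_control alone differed past the threshold.

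Expressed as log2 differences, whd in PMdr65 was -0.99 against WT_new (limma adjusted p = 6.85e-06), -0.81 against WT_old (2.02e-05) and -0.50 against UAS_control (0.00216). C17 gave -0.33 against WT_new (limma adjusted p = 0.0244), -0.15 against WT_old (0.305) and 0.15 against UAS_control (0.270). The first of these was not past the threshold without C17 array 1 or 3 or WT_new array 2 (up to 0.0830). The mutants differed from each other in whd, which was 1.58-fold higher in C17 than in PMdr65 (log2 difference 0.66, SE 0.11, limma adjusted p = 0.00110). This contrast uses no control array, 6.95% of all genes passed in it, and whd was the 1 gene of the 6 that did. The control groups also differed in whd: UAS_control was below WT_new by 0.48 (limma adjusted p = 0.00783) and below WT_old by 0.31 (0.0147). In whole-brain RNA, fewer cells that express a gene and less of its RNA per cell cannot be told apart.

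Without WT_new array 3 and UAS_control array 2, both genes still passed against all 3 control groups in PMdr65. Without UAS_control array 3 as well, that group has 1 array, which is then assumed to vary like the other groups. The values against it were then 0.41 for Acsl (limma adjusted p = 0.0621) and -0.30 for whd (0.0962), neither past the threshold, and 0 of the 6 genes passed against all 3 control groups. With these 3 arrays left out, whd in C17 passed as 0.36 higher than the remaining UAS_control array (0.0488). The direct contrast of the mutants holds none of these arrays, so its estimate is fixed and only its error changes (limma adjusted p = 0.000545).

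**Figure D2:**
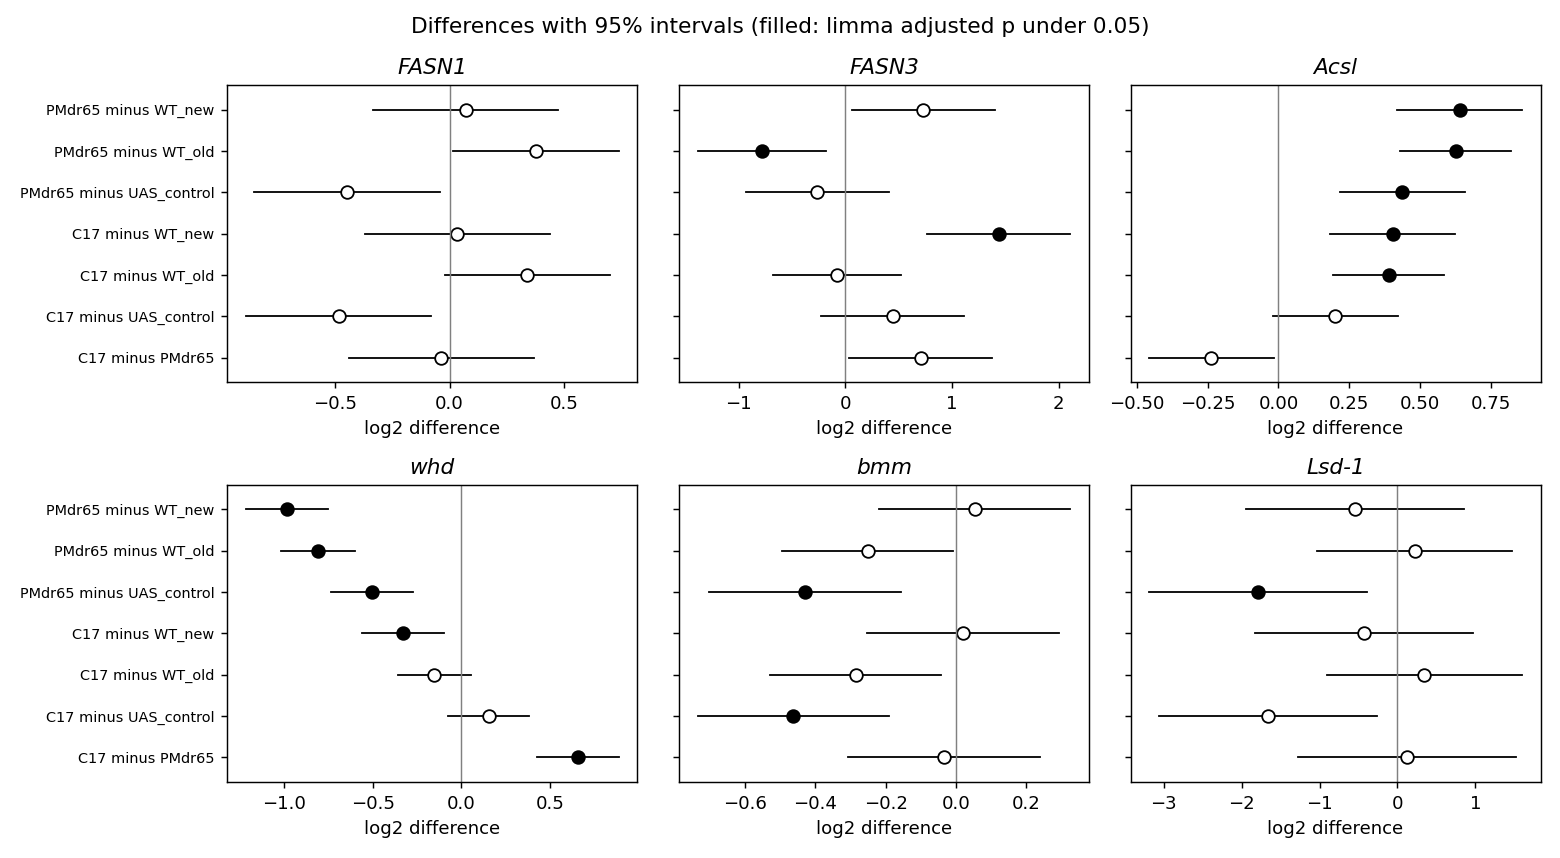
Points are log2 differences of the 6 genes in 7 contrasts, with 95% intervals as bars; filled points passed limma's adjusted p of 0.05, and the horizontal scales differ. Acsl and whd are filled in all 3 PMdr65 contrasts with controls, on opposite sides of 0, and whd alone is filled in the contrast of the mutants.

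The synthesis genes did not move against all 3 control groups in either mutant. FASN1, the fatty acid synthase gene of the fat body and other tissues, was 11.23, 11.24 and 11.15 in C17 and 11.15, 11.27 and 11.30 in PMdr65. WT_old lay below these at 10.84, 10.87, 10.89, 10.85 and 10.88, while WT_new (11.03, 10.97, 11.52) and UAS_control (11.14, 12.19, 11.73) overlapped the mutants. The group means ran from WT_old (10.87 ± 0.02, n = 5) through WT_new (11.17 ± 0.30), C17 (11.20 ± 0.05) and PMdr65 (11.24 ± 0.08) to UAS_control (11.69 ± 0.53; SD, n = 3 unless given). No neighbours in this order differed past the threshold.

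FASN1 in the mutants was 0.34 to 0.38 above WT_old (limma adjusted p = 0.183 in C17 and 0.112 in PMdr65), 0.03 and 0.07 above WT_new, and 0.48 and 0.45 below UAS_control (0.0511 and 0.0733). The 1 contrast in which FASN1 passed was between controls, UAS_control above WT_old by 0.82 (limma adjusted p = 0.000872). Without WT_new array 3 and UAS_control arrays 2 and 3 this fell to 0.27 (limma adjusted p = 0.0117). Without these 3 arrays both mutants passed as higher than WT_old (0.34 and 0.38, limma adjusted p = 0.000396 and 0.000136) and than WT_new (0.21 and 0.24, 0.0203 and 0.00844), and differed from the remaining UAS_control array by 0.07 and 0.10 (0.556 and 0.358).

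FASN3, a fatty acid synthase paralog known from the oenocytes, where it serves the waterproofing of the cuticle and tracheae, was dim on these arrays. Its signals were 2.46 to 3.07 in WT_new, 3.37 to 3.54 in PMdr65 and 2.996 to 4.65 in UAS_control, and reached 3.98 to 4.29 in C17 and 3.68 to 4.56 in WT_old, where the lowest mean of any probe set was 2.16. Differences this close to the floor are compressed, so its folds are approximate. The means ran in the order WT_new (2.73 ± 0.31), PMdr65 (3.46 ± 0.08), UAS_control (3.72 ± 0.85), C17 (4.17 ± 0.17) and WT_old (4.24 ± 0.34, n = 5; SD, n = 3 unless given), with no neighbours past the threshold.

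Of the 4 FASN3 calls, 3 were against the low WT_new. C17 was 1.44 above WT_new (limma adjusted p = 0.00214), WT_old 1.51 above it (0.000601) and UAS_control 0.99 above it (0.0460). PMdr65 was 0.73 above WT_new (limma adjusted p = 0.0750) but 0.78 below WT_old (0.0485), so the 2 wild types place it on opposite sides. The last call was near the threshold, and leaving out an array moved it past 0.05 in 12 of 17 cases (up to 0.138). The UAS_control call was lost in 13 of 17 cases (up to 0.164), including without UAS_control array 3, which gave 0.53. It was also lost without WT_new array 3 and UAS_control arrays 2 and 3. The signals that remain were then 3.52 on UAS_control array 1 and 2.66 and 3.07 on WT_new arrays 1 and 2. Of the 7 oenocyte and cuticle markers measured, spidey was higher in WT_old than in WT_new, as FASN3 was, Cpr49Ae was lower, and the other 5 did not pass (list median -0.01). The signal of spidey was 10.42 to 10.53 in WT_old and 10.25 to 10.41 in WT_new, which do not overlap. That of Cyp4g1, a defining gene of the oenocytes, was 4.41 to 5.32 and 4.34 to 5.07, which do, and eloF was near the floor at 2.61 to 3.04. UAS_control was above WT_new in FASN3 too, and there Cyp4g1, Cpr62Bc and TwdlT passed as higher and 0 markers as lower (list median 1.13). Cyp4g1 was 5.30 to 7.25 in UAS_control. The part of these cells in the FASN3 differences was not tested.

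Among the storage genes, Lsd-1 differed most between arrays. Lsd-1 codes for perilipin 1, which coats lipid droplets and in the fat body recruits lipases during stimulated fat release. Its signal was 10.24 on UAS_control array 2, 8.58 on UAS_control array 3 and 8.46 on WT_new array 3, and at most 7.41 on the other 14 arrays. UAS_control array 1 had 6.80, and WT_new arrays 1 and 2 had 6.83 and 6.61. The ranges elsewhere were 6.55 to 7.41 in C17, 6.59 to 6.96 in PMdr65 and 6.01 to 7.39 in WT_old. All of these lie below the 3 high arrays and overlap the remaining arrays of UAS_control and WT_new.

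The mean of Lsd-1 was 8.54 ± 1.72 in UAS_control and 7.30 ± 1.01 in WT_new, against 6.88 ± 0.47 in C17, 6.76 ± 0.19 in PMdr65 (SD, n = 3 each) and 6.53 ± 0.52 in WT_old (SD, n = 5). No neighbours in this order differed past the threshold. The log2 difference from UAS_control was -1.79 in PMdr65 (limma adjusted p = 0.0422) and -1.67 in C17 (0.0522), and UAS_control was above WT_old by 2.01 (0.00926). The first of these was lost without any of 9 of the 17 arrays. Without WT_new array 3 and UAS_control array 2, the first 2 differences were -0.93 (limma adjusted p = 0.121) and -0.81 (0.166). Without UAS_control array 3 as well they were -0.04 and 0.08, and the difference between UAS_control and WT_old was 0.27 (limma adjusted p = 0.617).

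The gene bmm (brummer) codes for the fly counterpart of adipose triglyceride lipase, which starts the breakdown of stored triglyceride. Its signals were 9.55, 9.53 and 9.47 in C17, 9.45, 9.58 and 9.61 in PMdr65 and 9.28, 9.63 and 9.58 in WT_new. They were 9.75, 9.77, 9.85, 9.70 and 9.93 in WT_old and 9.64, 10.26 and 10.04 in UAS_control. Both mutants thus overlapped WT_new and lay below all WT_old and UAS_control arrays. The means were 9.50 ± 0.19 (WT_new), 9.52 ± 0.04 (C17), 9.55 ± 0.09 (PMdr65), 9.80 ± 0.09 (WT_old, n = 5) and 9.98 ± 0.32 (UAS_control; SD, n = 3 unless given), and no neighbours differed past the threshold.

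Against UAS_control, bmm was 0.46 lower in C17 (limma adjusted p = 0.00902) and 0.43 lower in PMdr65 (0.0153). Against WT_old it was 0.28 and 0.25 lower, not past the threshold (limma adjusted p = 0.0964 and 0.115), and against WT_new it was 0.02 and 0.05 higher (0.912 and 0.762). Between controls, UAS_control was 0.48 above WT_new (limma adjusted p = 0.0196), which fell to 0.39 (0.0763) without WT_new array 3 and UAS_control array 2 and to 0.18 (0.444) without UAS_control array 3 as well. WT_old was 0.31 above WT_new (limma adjusted p = 0.0408). This call was lost without any of 8 of the 17 arrays and was 0.20 without WT_new array 1. Without WT_new array 3 and UAS_control arrays 2 and 3, the differences of C17 and PMdr65 from UAS_control were -0.12 and -0.09 (limma adjusted p = 0.491 and 0.636). In the same fit both mutants passed as lower than WT_old, with the differences unchanged (0.0212 and 0.0287). The PMdr65 call against UAS_control was also lost without PMdr65 array 1 (-0.38) or UAS_control array 2 (-0.29) alone.

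**Figure D3:**
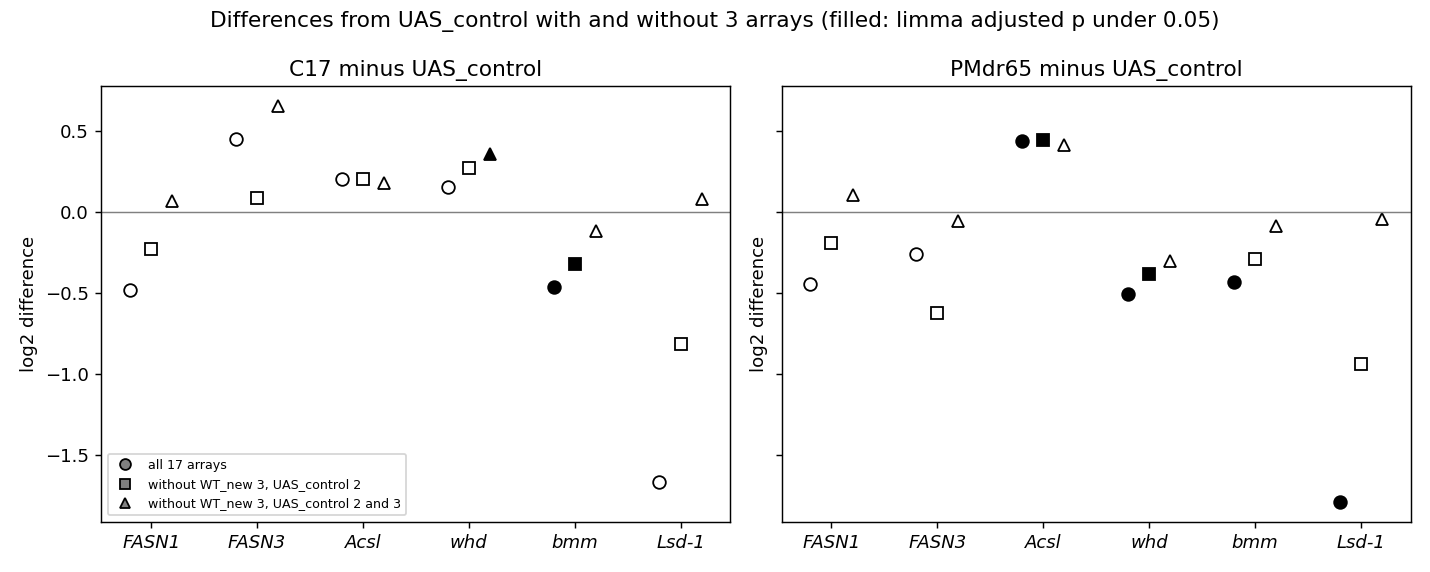
Log2 differences of each mutant from UAS_control for the 6 genes with all 17 arrays (circles), without WT_new array 3 and UAS_control array 2 (squares) and without UAS_control array 3 as well (triangles); filled symbols passed limma's adjusted p of 0.05. The Lsd-1, FASN1 and bmm values move toward 0 as the arrays are left out, while Acsl in PMdr65 stays between 0.41 and 0.44.

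The same 3 arrays that were high in Lsd-1 carried the highest signals of the eye markers and of the yolk protein gene Yp1, which the fat body and ovary express. Yp1 was 12.85 on WT_new array 3, 12.96 on UAS_control array 2 and 12.72 on UAS_control array 3, 12.37 at most on the other arrays, and 7.47 to 9.43 in WT_old. Of the other fat body markers measured, Yp2, Yp3 and apolpp were also highest on these 3 arrays, and Lsp2 and Mtp were not. Mtp was 8.33 on WT_new array 3 and 8.83 to 8.95 in C17. Between the wild types, Yp1, Yp2, Yp3 and apolpp passed as lower in WT_old, while Lsp2 and Mtp did not pass. The pools held brains of female and male flies, and the part of sex in the yolk protein signals was not tested. Over the whole list of fat body markers (6 of 12 measured), the mean was 9.63 to 10.79 in WT_new, 9.86 to 11.05 in UAS_control, 9.35 to 9.94 in C17 and 9.55 to 10.73 in PMdr65, but 7.11 to 7.96 in WT_old. PMdr65 array 2 (10.73) was thus above UAS_control array 3 (10.69) in this mean. FASN1 shared the order of the list means in that WT_old was lowest and UAS_control array 2 highest.

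Muscle markers (11 of 15 measured) had means of 6.55 to 9.05 in UAS_control and 5.91 to 6.66 in WT_new against 5.08 to 5.92 in the other groups. Among them Act79B, named after its values were seen, alone passed against all 3 control groups in PMdr65, as lower. It was also the only muscle marker that passed between the mutants, higher in C17, as whd was. Eye markers (6 of 10 measured) had 8.72 to 10.23 in UAS_control and 6.14 to 10.51 in WT_new against 5.38 to 6.01. Oenocyte and cuticle markers (7 of 9 measured) had 6.002 to 6.50 in UAS_control against 4.86 to 5.73. The part of these tissues in the Lsd-1, FASN1 and bmm differences was not tested. For Acsl and whd, the differences of PMdr65 from WT_new were 0.64 and -0.998 without WT_new array 3 and UAS_control array 2. Those from UAS_control were 0.44 and -0.39 in that fit, and the smaller ones without UAS_control array 3 as well are given above. The part of these tissues in the Acsl and whd differences was not tested either. Lsp2, a larval serum protein of the fat body, was 7.07 to 9.02 in PMdr65 and 3.39 to 6.17 on all other arrays, and its part in the PMdr65 results was not tested.

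**Figure D4:**
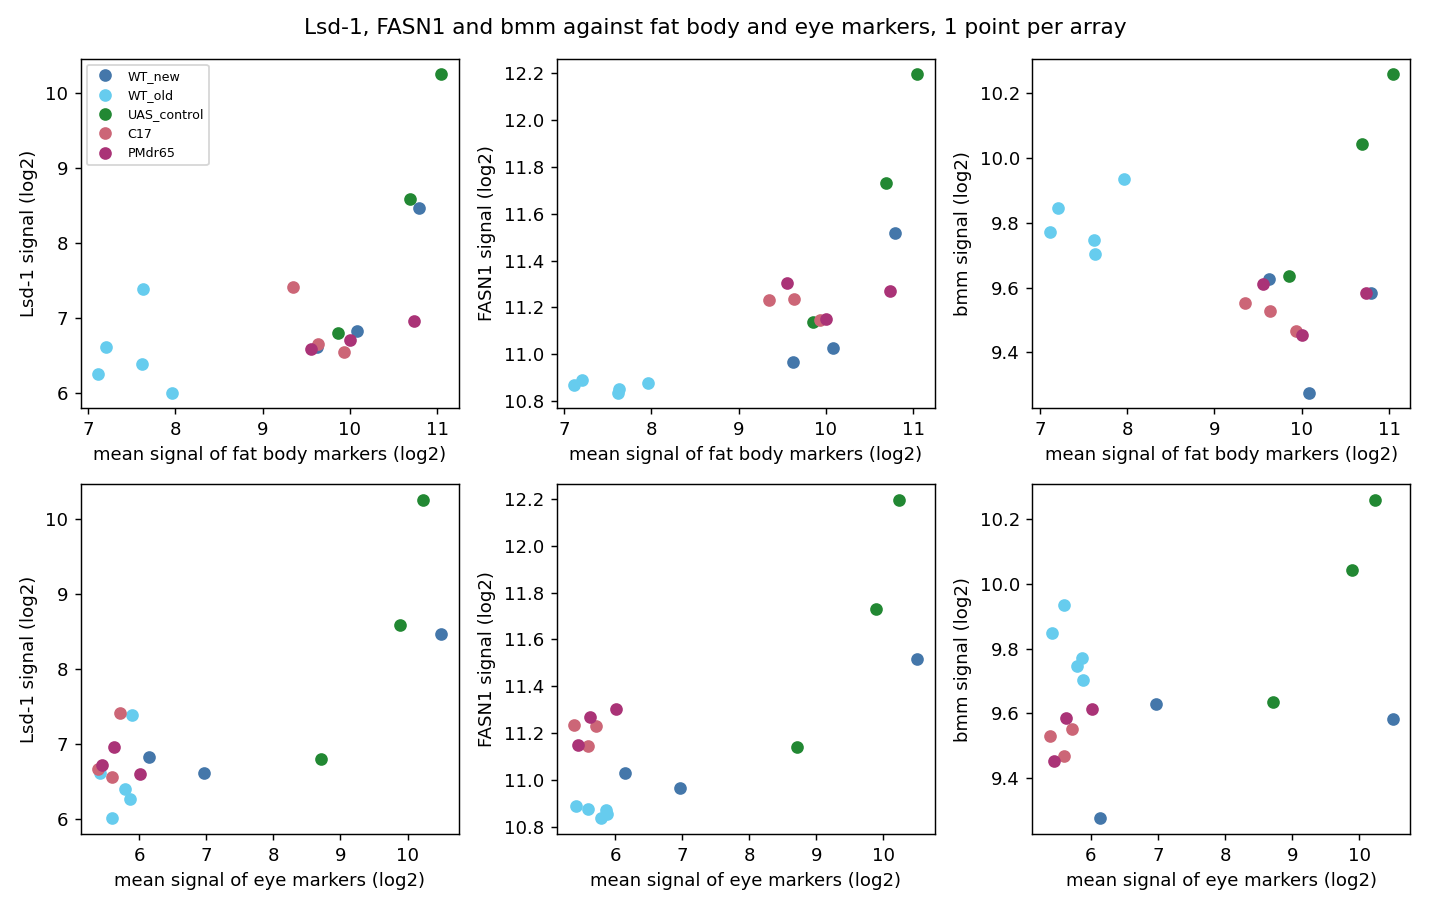
The log2 signals of Lsd-1, FASN1 and bmm on each array are plotted against the mean log2 signal of 6 fat body markers (top) and 6 eye markers (bottom), coloured by group. UAS_control arrays 2 and 3 and WT_new array 3 form the high end for Lsd-1 and eye markers, and WT_old lies at the low end of the fat body axis with the lowest FASN1.

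Between the genes, 15 pairs were compared over the 17 arrays, which share 5 group levels and are not independent in that respect. FASN1 and Lsd-1 rose and fell together (Pearson r = 0.90, permutation p = 4e-05, adjusted over the pairs 6e-04; Spearman rho = 0.64, adjusted permutation p = 0.0474). Without UAS_control arrays 2 and 3, the farthest from the median of FASN1, r was 0.63. Within groups, taken as deviations from the group means, r was 0.90 (permutation p = 0.0195, adjusted 0.292). Acsl and whd were opposed (r = -0.73, adjusted permutation p = 0.00735; rho = -0.71, adjusted 0.0326), with r = -0.58 without PMdr65 arrays 1 and 2. Within groups their r was 0.36 (adjusted permutation p = 0.395), so the opposition lay between the groups and was not seen among arrays of a group. The other 13 pairs did not pass after adjustment.

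Over all 8938 genes and 17 arrays, the genes with the pattern most like that of each member were ranked by Pearson's r, given as a description. For Acsl they were Rab3, a synaptic vesicle GTPase (r = 0.96), LpR2, a lipophorin receptor (0.95), and pes, a scavenger receptor of the CD36 family (0.95). The r values of these 3 over the 14 arrays without the bright ones were 0.98, 0.95 and 0.95. LpR2 had means of 9.05 ± 0.10 in PMdr65 and 8.78 ± 0.08 in C17, against 8.24 ± 0.35, 8.39 ± 0.13 (n = 5) and 8.66 ± 0.07 in WT_new, WT_old and UAS_control (SD, n = 3 unless given). For whd they were Menl-2, a malic enzyme-like gene (r = 0.90), CG15019 (0.89) and CG32237 (0.89). Menl-2 was 4.69 ± 0.42 in PMdr65 and 6.26 ± 0.77 in C17, against 5.83 ± 0.33 to 7.09 ± 0.18 (SD) in the controls.

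For Lsd-1 the nearest genes were sug, Npc2g and CG8586 (r = 0.96 each). The gene sug (sugarbabe) codes for a transcription factor that responds to dietary sugar and acts on lipid synthesis genes, and Npc2g is a member of the Niemann-Pick type C-2 family. Over the 14 arrays without the 3 bright ones their r fell to 0.73, 0.65 and 0.69. For FASN1 they were GstE9, a glutathione S-transferase (0.95), Fmo-2, a flavin monooxygenase (0.95), and CG8306 (0.94), with 0.74 to 0.79 over the 14 arrays. For bmm they were Art3 (0.85), edl (0.84) and Cyp4p1 (0.82), and for FASN3 CG32795 (0.91), Gprk2 (0.89) and Ythdc1 (0.89).

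The other genes of the pathway were taken from 8 lists (fatty acid synthesis, desaturation and elongation, activation and transport, triglyceride and phospholipid synthesis, lipid droplets and lipases, mitochondrial oxidation, peroxisomal oxidation, regulators), of which 110 genes were measured. Against all 3 control groups, 10 rose and 1 fell in PMdr65, and 5 rose and 1 fell in C17. These are 10% and 5.45% of the list genes, beside 9.05% and 6.65% of all genes. Without WT_new array 3 and UAS_control array 2 the counts were 7 and 2 in PMdr65 and 3 and 1 in C17. With UAS_control array 3 left out as well they were 8 and 2, and 4 and 1.

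Beside Acsl, 1 activation gene passed in PMdr65 out of 9 measured. This was pdgy (pudgy), an acyl-CoA synthetase, higher by 0.38 to 0.83 against the 3 control groups (limma, highest adjusted p = 0.0177). The smallest of these differences without WT_new array 3 and UAS_control array 2 was 0.35 (limma adjusted p = 0.0507), and without UAS_control array 3 as well 0.30 (0.196). Like Acsl it was between the controls and PMdr65 in C17 (10.21 ± 0.09 against 10.47 ± 0.02 in PMdr65; SD, n = 3), where it passed against both wild types and not against UAS_control (0.11, limma adjusted p = 0.468). The list median in PMdr65 was 0.08 against WT_new, 0.65 against WT_old and 0.01 against UAS_control, where the medians of all genes were at most 0.01.

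In glycerolipid synthesis (18 measured), Agpat2, a lysophosphatidic acid acyltransferase gene, rose in both mutants, by 0.61 to 1.15 in PMdr65 and 0.42 to 0.95 in C17 (limma, highest adjusted p = 0.000245 and 0.00352). Gk2, a glycerol kinase gene, fell in both, by 0.69 to 1.36 in PMdr65 and 0.63 to 1.29 in C17 (highest adjusted p = 0.00589 and 0.0109). CG1941, of the diacylglycerol acyltransferase family, was dim and higher in PMdr65 by 0.89 to 0.95 (highest adjusted p = 0.00317), with 5.56 ± 0.21 (SD, n = 3) against control means of 4.61 to 4.67. In C17 it was 4.73, lower than in PMdr65 by 0.84 (limma adjusted p = 0.0192).

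In the droplet and lipase list (15 measured), ifc and Atg8a rose in PMdr65, by 0.47 to 0.75 and 0.19 to 0.20 (limma, highest adjusted p = 0.000664 and 0.0207), and 0 passed in C17. Neither codes for a lipase: ifc (infertile crescent) is a dihydroceramide desaturase and Atg8a an autophagy protein. Between the mutants, a further droplet gene differed: sturkopf, which codes for a lipid droplet protein. It was 8.47 in C17 and 7.75 in PMdr65 (0.71 higher in C17, limma adjusted p = 0.000108), and PMdr65 was below WT_new by 0.46 and UAS_control by 0.81 but 0.08 below WT_old (limma adjusted p = 0.529). Lsd-2, the other fly perilipin, named here for its role after its values were seen, did not pass against WT_new or UAS_control in either mutant. It passed as higher in C17 than in WT_old (0.44, limma adjusted p = 0.0387).

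Of 17 desaturation and elongation genes, CG31522, an elongase gene, rose in both mutants by 0.34 to 0.48 in PMdr65 and 0.23 to 0.36 in C17 (limma, highest adjusted p = 0.00241 and 0.0222). The smallest difference of CG31522 in C17 without WT_new array 3 and UAS_control array 2 was 0.23 (0.0539), and it passed again without UAS_control array 3 as well (0.30, 0.0376). With the gene's most variable probe set in place of its brightest, its smallest difference was 0.10 and 0.02 and neither passed. Hacd2, an acyl-CoA dehydratase gene, was higher in PMdr65 by 0.26 to 0.68 (highest adjusted p = 0.0387) and lower in C17 than in PMdr65 by 0.54 (0.00195). Its call against all 3 control groups was kept in 6 of 12 other settings and 13 of the 17 fits that left out 1 array. The smallest Hacd2 difference was 0.21 (0.142) without the first 2 bright arrays and 0.11 (0.538) without all 3. Of 6 synthesis genes, Men-b, the mitochondrial malic enzyme gene, rose in C17 by 0.15 to 0.32 (highest adjusted p = 0.0440) and 0 passed in PMdr65. The Men-b call was kept in 6 of the 17 fits that left out 1 array, and was 0.13 (0.128) and 0.10 (0.375) without 2 and 3 bright arrays. Idh was 0.29 higher in C17 than in PMdr65 (limma adjusted p = 0.0294).

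Of 16 measured genes in the mitochondrial list, which also holds the acyl-CoA oxidase gene Acox3, 0 passed against all 3 control groups in either mutant. The median difference in PMdr65 was -0.06 against WT_new, 0.28 against WT_old and -0.27 against UAS_control. CPT2 and colt, named for their role after their values were seen, code for the inner membrane carnitine palmitoyltransferase and carnitine-acylcarnitine carrier that act after whd. In PMdr65, CPT2 was 0.66 above WT_old and 0.50 below UAS_control (limma adjusted p = 0.00502 and 0.0340), and 0.15 below WT_new (0.501). In the same mutant colt was 0.31 above WT_old and 0.58 below UAS_control (limma adjusted p = 0.0370 and 0.00145), and 0.27 below WT_new (0.0809). Of 9 peroxisomal genes, CG17544, an acyl-CoA oxidase gene, rose in PMdr65 by 0.35 to 0.53 (highest adjusted p = 0.0209). Its smallest difference was 0.33 (0.104) without the 3 bright arrays.

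Between the control groups, mitochondrial genes were counted in single contrasts, a looser rule than passing in 1 direction against all 3 control groups. The counts that follow are therefore not comparable with those of the mutants above. In WT_old 11 of the 16 genes were lower than in WT_new and 0 higher (list median -0.32, all genes 0.01), where 45% of all genes passed in either direction and 21% as lower. In UAS_control 14 of 16 were higher than in WT_old and 0 lower (median 0.59, all genes -0.01), where 54.6% of all genes passed and 27.3% as higher. Leaving out WT_new array 3 and UAS_control arrays 2 and 3 changed these counts to 10 and 9. Leaving out 1 array at a time, the first count was 6 without either WT_new array 2 or 3, and 7 without WT_new array 1 or WT_old array 2 or 3. Against WT_new, 5 of 16 were higher in UAS_control and 0 lower, where 14.8% of all genes passed in either direction. These differences moved with the muscle, eye and fat body markers given above, whose part was not tested. In whd, UAS_control was the lowest control group.

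Regulators (20 measured) included Sik3, a kinase that in flies acts on HDAC4 and lipid storage, which rose in both mutants by 0.40 to 0.69 (limma, highest adjusted p = 0.00661 in PMdr65 and 0.0112 in C17). HDAC4 rose in PMdr65 by 0.14 to 0.48 (highest adjusted p = 0.0436), a call kept in 8 of the 17 fits that left out 1 array, with an adjusted p of 0.0518 and 0.0492 without 2 and 3 bright arrays. ERR, a nuclear receptor of energy metabolism, rose in C17 by 0.40 to 0.74 (0.000955) and was 0.38 higher there than in PMdr65 (limma adjusted p = 0.00773). SREBP, a transcription factor of fatty acid synthesis named for its role after its values were seen, changed sign with the control. In PMdr65 it was 0.29 and 0.59 below WT_new and UAS_control and 0.25 above WT_old (limma adjusted p = 0.00490, 2.59e-05 and 0.00960).

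**Figure D5:**
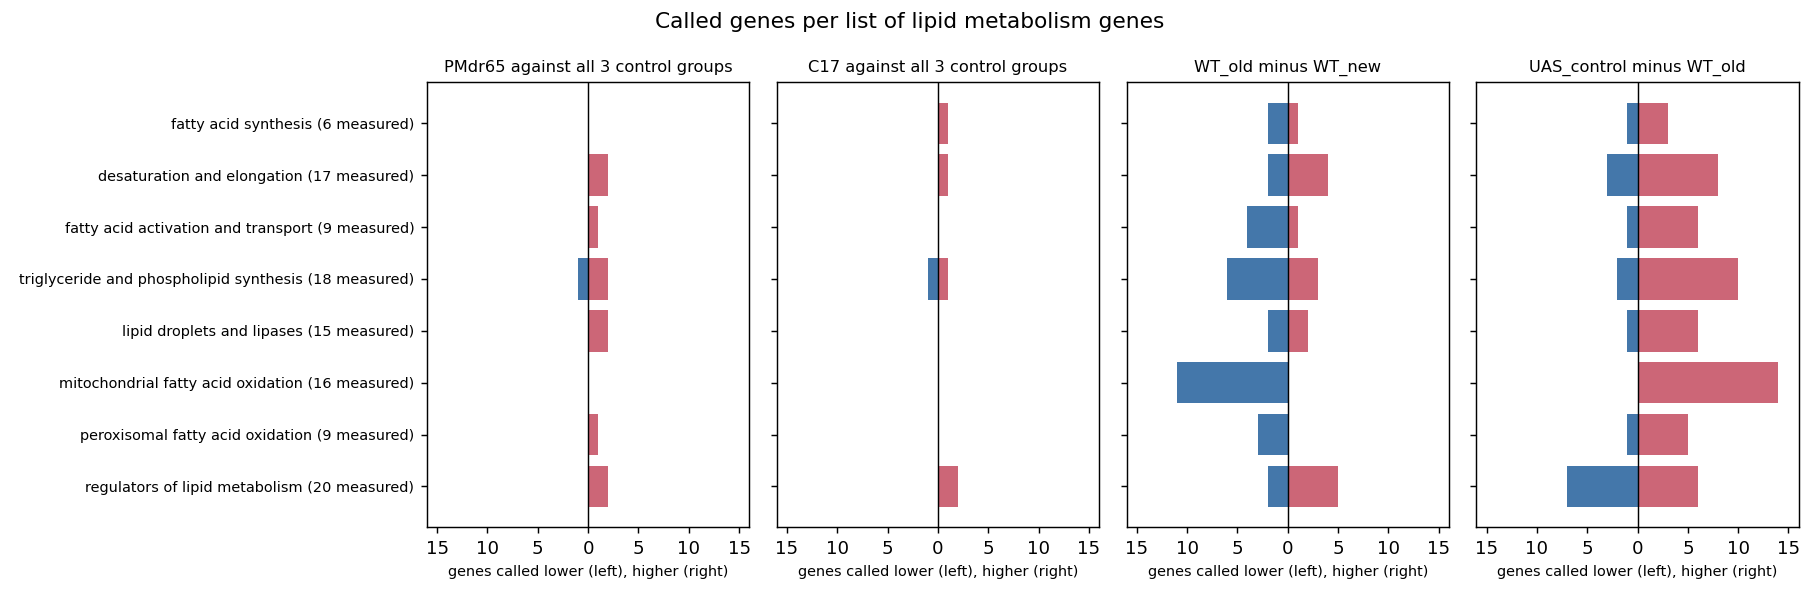
Bars count the genes of each list that passed limma's adjusted p of 0.05 as lower (left of 0) or higher (right of 0), for each mutant against all 3 control groups and for 2 contrasts between controls. The mitochondrial list has 0 genes in both mutant panels, 11 lower in WT_old than in WT_new and 14 higher in UAS_control than in WT_old. A gene must pass 3 contrasts to count in a mutant panel and 1 in a control panel, so counts are not comparable between them.

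The counts of the 6 genes past the threshold in each contrast were read against those of all genes. In C17 against WT_new, WT_old and UAS_control, 3, 1 and 1 of the 6 passed, where 42%, 19.7% and 43.5% of all genes did. In PMdr65 the counts were 2, 3 and 4, where 43.2%, 28.5% and 41.1% of all genes passed. Between controls they were 2 (WT_old against WT_new, 45%), 3 (UAS_control against WT_new, 14.8%) and 3 (UAS_control against WT_old, 54.6%). The comparisons of a mutant share its arrays, and those of both mutants share the control arrays, so these counts are not independent of each other. The median difference of the 6 was furthest from that of all genes in UAS_control against WT_new (0.50 against 0.01) and in PMdr65 against UAS_control (-0.44 against 0.01).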

How the data were processed

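Signals of 17 Affymetrix Drosophila arrays were used as deposited by the authors, as log2 values per probe set made with RMA, per the file headers. The submitters' processing notes list limma, affy and RMA (versions not given in the sources used here). Per the labels' protocols, RNA from dissected brains was isolated on Ambion columns, amplified with a NuGEN kit and labelled with biotin. Amplification and RMA background adjustment compress differences of dim probe sets. The filtered table held 13290 of 18769 probe sets, left out 5479 with a median signal of 4.04 (7.91 inside), and differed from the unfiltered one by at most 0.0050. The filter rule is not given in the sources used here. Probe sets outside it have no gene name here, so further ones of the 6 genes were not analysed here. Of the probe sets, 10243 carried 1 symbol, 310 several and 2737 none; the gene IDs of 8887 of 8938 genes were found in the current RefSeq table. A gene was represented by its brightest probe set.

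A model of 5 group means per probe set was fitted to the 17 arrays with limma (version 3.58.1, R version 4.3.3), which left 12 residual degrees of freedom and added 2.93 from the prior. It gave 10 contrasts, Benjamini-Hochberg adjustment over all probe sets within each contrast and a threshold of 0.05. Correlations between members used 100000 permutations (1e+05). The number of arrays limits precision; arrays of a group correlated at 0.9742 to 0.9967. The scripts were tested on simulated data. No column of per-sample values was left out. The members, lists and tests were chosen with earlier results of these data known.

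Named were the 6 genes, moody and Mdr65; per list up to 4 genes called against all 3 control groups in either mutant and up to 2 called between the mutants; the 3 genes most like each member; fat body and oenocyte markers; and genes marked as named later. Alternatives were the unfiltered table, quantile normalization, median centring, weights for arrays, a robust prior with a trend, fits to the compared groups alone, a replicate block, the dimmest 40% of probe sets left out, pooled wild types, the most variable probe set per gene, each array left out, and, added after seeing the data, leaving out the arrays brightest in eye markers, as well as list counts under each.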

Additional observations from a re-analysis of the deposited data

Results flagged for a closer look

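The carnitine palmitoyltransferase 1 gene whd is listed because the mutants differed in a direct test. Its log2 signal was higher in C17 than in PMdr65 by 0.66 (limma adjusted p = 0.00110), with all 3 C17 arrays above all 3 PMdr65 arrays, and it passed in each of 12 other settings and in each of the 17 fits that left out 1 array (highest adjusted p = 0.00839). In WT_old, the 1 group large enough for a check of outlying arrays, none of the 6 genes had an outlying array; the highest Dixon ratio was 0.656, for FASN3, against a critical value of 0.71.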

How the results depend on the processing

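Kept in every setting and in each fit that left out 1 array were the calls of Acsl and whd in PMdr65 against both wild types, of Acsl in C17 against both, of whd between the mutants, of FASN1 in UAS_control against WT_old and, where it was measured, of FASN3 in WT_old against WT_new. Acsl and whd in PMdr65 against UAS_control lost their calls only without all 3 bright arrays. Among settings that did not leave out single arrays, 14 differences not past the threshold changed sign in at least 1. The cause of these changes was not tested. With all probe sets in the fit, 1 of the 6 genes passed between WT_old and WT_new. Under quantile normalization, and likewise under median centring, 2 passed in C17 against UAS_control and 1 in WT_old against WT_new. The differences of FASN1 and bmm in C17 against WT_new and of Acsl in WT_old against WT_new were -0.0279, -0.0422 and -0.0369 under the former and -0.0053, -0.0182 and -0.0285 under the latter. With array weights the counts were 3 (C17 against WT_old), 3 (C17 against UAS_control), 5 (PMdr65 against WT_old) and 3 (C17 against PMdr65). Fits to the compared groups alone gave 3, 0, 5 and 2 in the same contrasts, 2 in PMdr65 against UAS_control and 0 in UAS_control against WT_new. Without the dimmest 40% of probe sets, which removed FASN3 and Lsd-1 from the counts, 2 passed in C17 against UAS_control and 1 in WT_old against WT_new. With both wild types pooled, 1 passed in C17 against wild type and 2 in PMdr65 against UAS_control. Against the pool, C17 gave -0.17 (bmm), 0.0557 (Lsd-1) and 0.49 (FASN3), PMdr65 gave -0.22 (FASN3), -0.14 (bmm) and -0.0649 (Lsd-1), and UAS_control 0.0457 (FASN3). Without WT_new array 3 and UAS_control array 2, 2 passed in C17 against WT_old and 2 in PMdr65 against UAS_control. Without UAS_control array 3 too, the counts were 3 (C17 against WT_old), 4, 5 and 0 (PMdr65 against WT_new, WT_old and UAS_control), 2 (C17 against PMdr65), 1 (UAS_control against WT_new) and 0 (PMdr65 against all 3). In both cases Lsd-1 was 0.15 (C17) and 0.0339 (PMdr65) against WT_new. In the second case FASN1 against UAS_control was 0.066 (C17) and 0.10 (PMdr65), Lsd-1 in C17 was 0.0792, and bmm in UAS_control against WT_old was -0.16.

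Probe sets past the threshold numbered 2612 in C17 against WT_old, 937 between the mutants and 2015 in UAS_control against WT_new. They were 4553, 2335 and 1228 with array weights. Fits to the compared groups gave 1637 and 488 in the last pair, and UAS_control against WT_new had 1241 without dim probe sets and 1315 without the 3 arrays. With pooled wild types the counts were 1699 (C17) and 2461 (PMdr65) against wild type, 3501 and 2769 against UAS_control, 494 between the mutants and 3575 in UAS_control against wild type.

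List genes lower in PMdr65 against all 3 control groups numbered 2 under quantile normalization, pooled wild types and either removal of bright arrays, 3 under a robust prior, 7 with array weights and 0 without dim probe sets. Higher in PMdr65 were 6 with pooled wild types. Higher in C17 were 3 in fits to the compared groups, with pooled wild types and without the first 2 bright arrays, and lower in C17 were 0 without dim probe sets. Mitochondrial genes numbered 8 without dim probe sets and 9 without the 3 arrays (UAS_control above WT_old), and 6 without dim probe sets (WT_old below WT_new). Single list genes that lost a call in some setting were Men-b, CG31522, Gk2 and Agpat2 in C17 and Hacd2, HDAC4, Atg8a, pdgy, CG17544 and CG31522 in PMdr65. Gk2, Agpat2 and CG1941 were among the dim probe sets left out, so they were not tested in that setting. The list counts without dim probe sets, the mitochondrial ones included, therefore cover fewer genes, and a gene left out there is not a lost call.

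Leaving out 1 array at a time, the number of the 6 genes past the threshold ranged from 1 to 3 in C17 against UAS_control, in C17 against WT_old and in WT_old against WT_new, from 2 to 5 in PMdr65 against UAS_control and from 1 to 5 in UAS_control against WT_new. Probe sets ranged from 601 to 1019 (C17 against PMdr65), 1709 to 2848 (C17 against WT_old) and 1219 to 2404 (UAS_control against WT_new). List genes ranged from 3 to 5 (higher in C17), 0 to 2 (lower in C17), 5 to 10 (higher in PMdr65), 1 to 3 (lower in PMdr65) and 6 to 12 (mitochondrial, WT_old below WT_new). Differences that changed sign ranged from -0.0743 to 0.10 (Acsl, WT_old against WT_new), -0.0685 to 0.21 and -0.0322 to 0.24 (FASN1, C17 and PMdr65 against WT_new), -0.22 to 0.0202 (FASN3, C17 against WT_old), -0.62 to 0.20 (FASN3, PMdr65 against UAS_control), -0.77 to 0.15 and -0.89 to 0.0339 (Lsd-1, C17 and PMdr65 against WT_new), -0.15 to 0.28 (Lsd-1, C17 against PMdr65), and -0.0896 to 0.0866 and -0.0565 to 0.12 (bmm, C17 and PMdr65 against WT_new).

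Of 30 same-numbered pairs of arrays from different groups, 4 had deviations from the group means that correlated above 0.1 (range -0.474 to 0.405). Pairs with different numbers were not compared, so whether the replicate numbers pair the arrays is not settled. With the number as a replicate block, 1 of the 6 genes passed in WT_old against WT_new, where Acsl was -0.0764, 3 in PMdr65 against UAS_control, 2 in UAS_control against WT_new and 4 in UAS_control against WT_old. List genes lower against all 3 control groups were 0 in C17 and 3 in PMdr65 under the replicate block. Signals near the floor limit FASN3, CG1941 and eloF, and 3 arrays a group limit the rest.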
